A study of Saccharomyces cerevisiae with 2 samples.

Results

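The end of the large subunit rRNA beyond helix H95, together with the spacer that follows it, was examined in the CRAC data. All 545 nucleotides from position 6314 to position 6858 of the 35S pre-rRNA were taken, out of 6858 in all, by position alone and in both libraries. They comprise nucleotides 3063 to 3396 of the 25S rRNA, which is the 3′ part of domain VI after helix H95 (334 nucleotides, here called the 25S tail), and the whole 3′ external transcribed spacer (3′ ETS, 211 nucleotides). In the R64 genome the 25S tail lies at chrXII:451786-452119 and the 3′ ETS at chrXII:451575-451785, both on the minus strand in the rDNA unit RDN37-1. A second annotated unit, RDN37-2, has them at chrXII:460923-461256 and chrXII:460712-460922. The rDNA is repeated, so no value can be assigned to 1 copy, and how reads were placed among the copies was not examined.

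CRAC (crosslinking and analysis of cDNA) uses UV light to bind RNA covalently to a protein in living cells, after which the tagged protein is purified and the attached RNA fragments are sequenced. The study compared 1 library from budding yeast whose Rbp95, an assembly factor of the large ribosomal subunit, carried a C-terminal HTP tag (His-Tev-ProtA) in the BY4741 background with 1 library from untagged cells, labelled BY4741 and no Tag and here called the control. Both cultures were grown in the same medium without tryptophan and irradiated for 100 s. With 1 library per condition there was no spread between replicates, so no difference between the libraries was tested. The deposited pileups give hits, that is, the number of reads that cover a nucleotide. Upward steps of the hits put the number of reads at no less than 97296 (Rbp95-HTP) and 99994 (control), and both pileups were limited to 100000 reads. The tail shares that limit with helix H95: the 72 nucleotides just before it, which are the helix with 20 nucleotides on either side, took 67.4% of all 35S hits in the Rbp95-HTP library, against 0.0469% in the control. Whether copies made by PCR were collapsed is not given in the sources used here, so intervals and floors cover counting error only.

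The 35S pre-rRNA is transcribed by RNA polymerase I and carries the 18S, 5.8S and 25S rRNAs, separated and flanked by spacers that are cut away during ribosome assembly. Domain VI is the last domain of the 25S rRNA. Its 5′ part holds helix H95 with the sarcin-ricin loop that translational GTPases touch in the mature ribosome, and it ends with the helices that close the 3′ end of the molecule. The RNase III enzyme Rnt1 cuts a stem-loop of the 3′ ETS while the RNA is still being made, and exonucleases then trim the remaining spacer up to the mature 25S end.

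The sequences on which the results turn are given in the letters of the deposited pileup, written as DNA, 5′ to 3′, on the rRNA strand. The first 3 are the highest places of the tail with Rbp95-HTP, each shown over the nucleotides that kept at least 50% of the local height, with the nucleotides from the first to the last at full height in capitals. The peak at nucleotide 3106 runs from nucleotide 3094 to 3124 (chrXII:452058-452088, minus strand, R64), the peak at nucleotide 3379 from 3375 to 3396 (chrXII:451786-451807) and the peak at nucleotide 3227 from 3215 to 3241 (chrXII:451941-451967), all given for RDN37-1.
Peak at 3106: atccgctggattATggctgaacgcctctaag
Peak at 3379: aagcCTTTGTTGTCTGATttgt
Peak at 3227: agcaggctagcaACGGTGCACTTggcg
The next shows a stretch of the tail without any hit, in capitals, with 5 covered nucleotides on either side (chrXII:451992-452022, minus strand).
Gap at 3165 to 3185: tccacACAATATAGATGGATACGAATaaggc
The last sequence crosses the mature end, with the final 22 nucleotides of the 25S rRNA in capitals and the first 30 nucleotides of the 3′ ETS in lower case (chrXII:451756-451807, minus strand).
Mature 25S end: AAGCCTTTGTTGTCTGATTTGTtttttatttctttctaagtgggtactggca

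With Rbp95-HTP the 25S tail was covered almost throughout, at a level that was low beside helix H95. No read of either pileup lay in the 3′ ETS. The tail held 71210 hits in the Rbp95-HTP library, or 2.44% of its 35S hits, compared with 313 hits, or 0.00778%, in the control. Per nucleotide of the tail this was a mean of 213.2 hits and a median of 149 with Rbp95-HTP, against a mean of 0.937 and a median of 0 in the control. Hits with Rbp95-HTP exceeded those of the control on 293 tail nucleotides, and no tail nucleotide had more in the control. Among all nucleotides of the 35S pre-rRNA, 53.3% had more hits with Rbp95-HTP. A net 2526 reads began in the tail with Rbp95-HTP, or 2.60% of the 35S reads (95% Wilson interval 2.50 to 2.70%), compared with 6 in the control, or 0.00600% (0.00275 to 0.0131%). The number of starts was thus 421 times that of the control. The share of 35S hits on the tail was 313.3 times that of the control, but such an excess was not particular to it. The 18S rRNA held 4.59% of the 35S hits with Rbp95-HTP, against 0.0104% in the control, ITS1 held 0.946%, against 0.00184%, and ITS2 held 0.437%, against 0. Other parts held a smaller share than in the control: the 5′ ETS 1.05%, against 1.33%, and the 5.8S rRNA 0.951%, against 26.3%. The 25S rRNA before the tail, with the helix H95 window left out, held 22.2% with Rbp95-HTP, against 72.3% in the control, although its median was 56 hits per nucleotide with Rbp95-HTP, against 0 in the control. Before that window, 5 nucleotides of the 35S pre-rRNA held 91821 of the 99939 control starts.

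**Figure D1:**
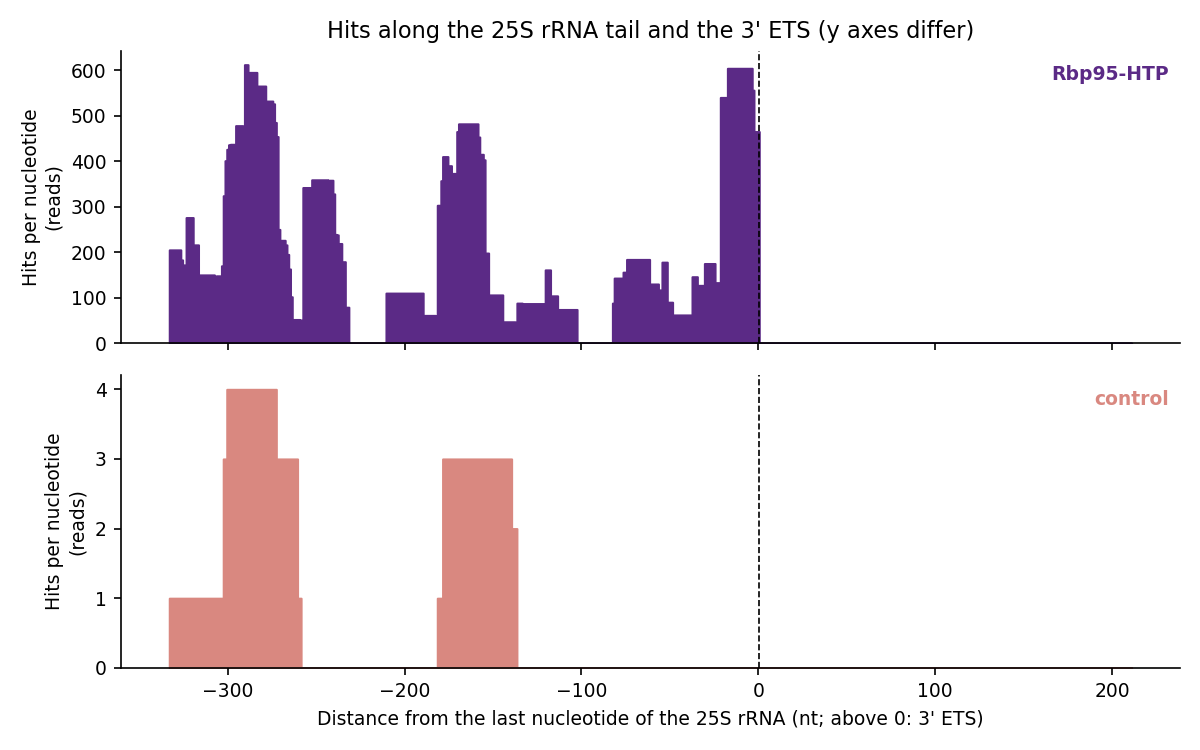
Hits per nucleotide (y axis, reads; the scales of the panels differ) against the distance from the last nucleotide of the 25S rRNA (x axis, nucleotides; values above 0 are the 3′ ETS), with Rbp95-HTP above and the control below. With Rbp95-HTP the tail reached 612 hits and was interrupted by 2 gaps, the control did not exceed 4 hits, and both pileups were at 0 to the right of the dashed line that marks the mature end.

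Of the parts compared here, the tail was among the most completely covered with Rbp95-HTP, although its heights were small beside helix H95. At least 1 hit was found on 293 of its 334 nucleotides (87.7%) with Rbp95-HTP and on 120 (35.9%) in the control, against 56.5% and 18.8% over the whole 35S pre-rRNA. Counted with the empty 3′ ETS, the share was 53.8% with Rbp95-HTP and 22.02% in the control, which is close to these overall shares. At least 100 hits were found with Rbp95-HTP on 227 nucleotides of the tail, or 68.0%, compared with 31.2% of the whole 35S pre-rRNA. Among the rRNAs, the spacers and the 25S rRNA before the tail, only the 5.8S rRNA had a larger covered share with Rbp95-HTP, at 93.0%. The 25S rRNA before the tail reached 64.7% and the 18S rRNA 48.8%. These parts differ in length, and other stretches of 334 nucleotides were not compared. The helix H95 window, within the 25S rRNA before the tail, was covered on all of its 72 nucleotides. The mean of the tail was 1.52 times the mean of 140.3 hits over the 35S pre-rRNA outside the helix H95 window, where the median was 34 hits. It was close to the mean of 216.6 hits over the 25S rRNA before the tail without that window, where the median was 56 hits. Without that window the tail held 7.48% of the 35S hits of the library.

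**Figure D2:**
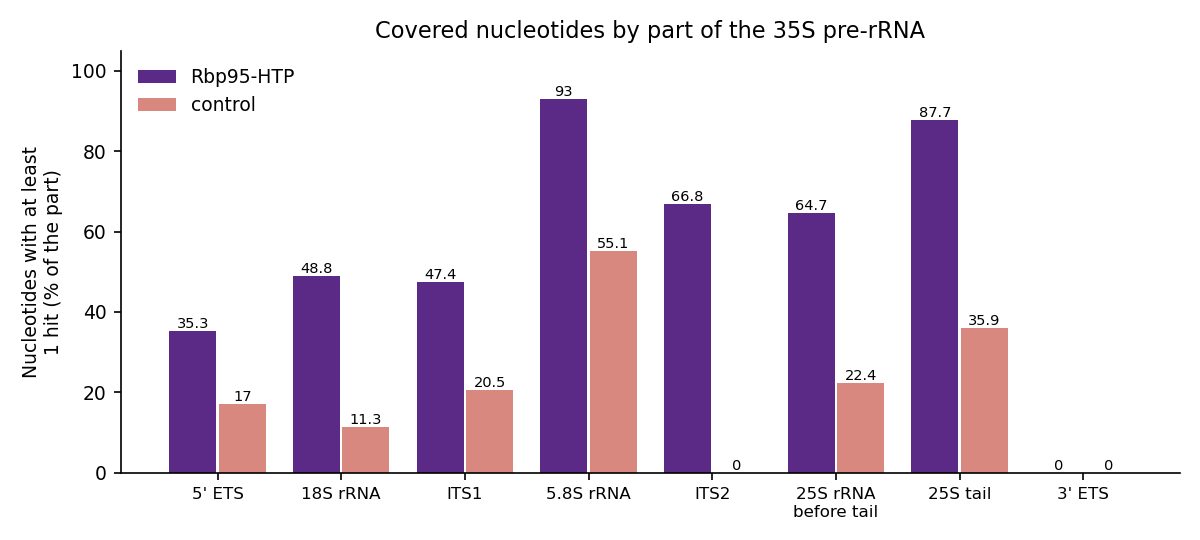
Share of nucleotides with at least 1 hit (y axis, percent) in each part of the 35S pre-rRNA (x axis, 5′ to 3′), with Rbp95-HTP to the left of the control. The 25S tail stood at 87.7% with Rbp95-HTP, against 35.9% in the control, while the 3′ ETS stood at 0 in both.

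The covered nucleotides of the Rbp95-HTP library formed 3 stretches. The first ran from the start of the tail to nucleotide 3164 (102 nucleotides, 51 to 612 hits) and continued the coverage of helix H95 without a break: 205 reads passed into the tail from upstream, and a net 66 reads began at nucleotide 3056, just before it. The second was the longest and ran from nucleotide 3186 to 3293 (108 nucleotides, 32 to 482 hits), and the third from nucleotide 3314 to the mature end at 3396 (83 nucleotides, 62 to 604 hits). Net starts were spread over all of them, with 956 in the first, 722 in the second and 848 in the third. The reads that entered from upstream made up 7.51% of the 2731 reads seen in the tail, so most of them began within it. On average a read covered at most 26.1 nucleotides of the tail.

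Between these stretches lay 2 gaps on which neither library had a hit. The first, of 21 nucleotides and shown in capitals among the sequences above, is 71.4% A or T, compared with 49.5% of the 293 covered nucleotides of the tail. In the 25S rRNA before the tail, A or T made up 53.7% of the uncovered and 51.1% of the covered nucleotides. The 3′ ETS, which was not covered at all, is 68.2% A or T. A part of base composition in the coverage was not tested.

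The control touched the tail at 2 places that Rbp95-HTP also covered, in stretches from nucleotide 3063 to 3137 and from nucleotide 3215 to 3259. Its highest points were 4 hits at nucleotide 3096 and 3 hits at nucleotide 3218, where the Rbp95-HTP library had 426 and 410 hits. The control starts fell on 4 nucleotides, with a net 2 reads at nucleotide 3094, 2 at 3218, 1 at 3096 and 1 at 3215. The largest of the Rbp95-HTP starts near them were 154 reads at nucleotide 3094 and 266 at nucleotide 3215. From nucleotide 3260 to the end of the transcript, 348 nucleotides, the control had no hit.

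Within the tail the Rbp95-HTP reads formed 2 peaks of nearly the same height near its opposite ends and 1 more between them. Nucleotide 3106 had 612 hits with Rbp95-HTP, against 4 in the control, and nucleotide 3379 had 604 hits with Rbp95-HTP, against 0 in the control. Nucleotide 3227 had 482 hits with Rbp95-HTP, against 3 in the control. These 3 peaks reached 0.918%, 0.906% and 0.723% of the 66665 hits at the top of this pileup, which lies in the helix H95 window. Taking successive peaks at least 50 nucleotides apart left nucleotide 3157 with 239 hits and nucleotide 3322 with 184 hits, and the control had no hit at either of them. The pileup around nucleotide 3157 was higher just upstream of it, with 359 hits from nucleotide 3144 on.

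Read starts in the tail were concentrated on few nucleotides. With Rbp95-HTP they fell on 29 nucleotides, and the 5 largest of them held 1301 of the 2526 starts, or 51.5%. The largest was nucleotide 3375, with a net 407 reads, followed by nucleotide 3139 with 291 reads and nucleotide 3215 with 266 reads. Nucleotides 3106 and 3094 came next with 183 and 154 reads. All 5 are an A that follows a T or a C. Ends were spread more widely, over 52 nucleotides. The mature end was the largest with a net 465 reads, followed by nucleotide 3241 with 205 and nucleotide 3124 with 204. Fewer start than end nucleotides were also seen outside the tail. Up to the helix H95 window, Rbp95-HTP starts fell on 257 nucleotides, the 5 largest holding 29.3%, and ends on 394. With that window included, starts fell on 277 nucleotides, the 5 largest holding 71.3%, and ends on 422. Reads that share a start cannot be told apart from PCR copies of 1 molecule in a pileup.

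**Figure D3:**
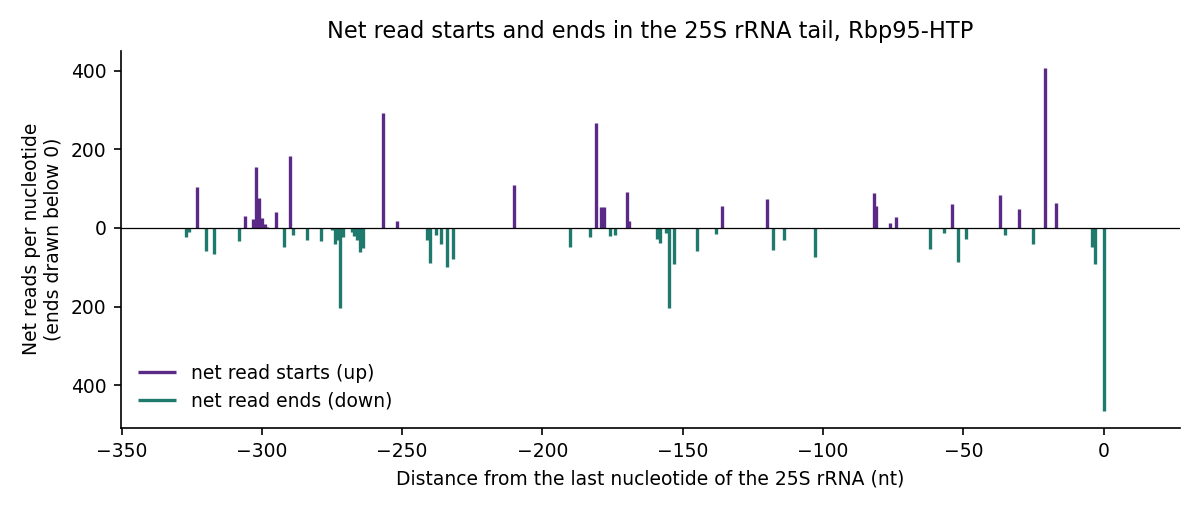
Net read starts (drawn upward) and net read ends (drawn downward) per nucleotide of the 25S tail in the Rbp95-HTP library (y axis, reads) against the distance from the last nucleotide of the 25S rRNA (x axis, nucleotides). The largest start, 407 reads, lies 21 nucleotides before the mature end, and the largest end, 465 reads, lies on it.

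The RNA fragments had been cut with RNace-IT, a mix of RNase A, which cuts after pyrimidines, and RNase T1, which cuts after G. Of the starts in the tail, 2323 (92.0%) followed a T or a C, 2.14% followed a G and 5.90% followed an A, whereas T and C make up 49.1% of the nucleotides in front of possible starts, G 27.5% and A 23.4%. The starts of the rest of the 35S pre-rRNA up to the helix H95 window were distributed alike, with 92.4% after T or C, 2.24% after G and 5.36% after A. The ends in the tail lay on T or C in 62.5%, on G in 23.5% and on A in 13.95%. Of the ends on T, 465 are those of the mature 25S end.

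At the mature 25S end, coverage with Rbp95-HTP stopped between 2 neighboring nucleotides. The last nucleotide of the 25S rRNA, T3396, had 465 hits with Rbp95-HTP, against 0 in the control. The first nucleotide of the 3′ ETS had 0 hits in both libraries. All 465 reads on T3396 therefore ended there, which is 17.0% of the 2731 net ends in the tail. The height before the border was 604 hits up to nucleotide 3392, after which a net 48 reads ended at nucleotide 3392 and 91 at nucleotide 3393. A net 407 reads had begun at nucleotide 3375, from which 22 nucleotides remain to the border counted with both ends, and a net 64 at nucleotide 3379.

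No read crossed from the 25S rRNA into the 3′ ETS in either pileup, and none began within it. Both pileups were limited to 100000 reads, so reads beyond that limit could not be seen. A count of 0 at the first spacer nucleotide allows up to 3 reads, or 0.645% of the 465 hits on the nucleotide before it, so hits on T3396 were at least 155-fold higher than on its neighbor. With the same floor of 3 hits on each spacer nucleotide, the mean over the 25S tail was at least 71.1-fold higher than that over the 3′ ETS. The floor of 3 reads corresponds to 0.00308% of all 35S reads in the Rbp95-HTP pileup. For the control no ratio is given, because its mean over the tail was itself below 3 hits.

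The other spacers did carry Rbp95-HTP reads. Hits lay on 247 of the 700 nucleotides of the 5′ ETS (35.3%), on 171 of the 361 nucleotides of ITS1 (47.4%) and on 155 of the 232 nucleotides of ITS2 (66.8%), with means of 43.7, 76.6 and 55.0 hits per nucleotide. Together these 3 spacers held 71024 hits with Rbp95-HTP, close to the 71210 hits of the 25S tail, on 1293 nucleotides. In the control, 119 nucleotides of the 5′ ETS, 74 of ITS1 and none of ITS2 were covered. The 5′ ETS nevertheless held more hits in the control, 53586 against 30614 with Rbp95-HTP, or a mean of 76.6 against 43.7. ITS1 held 74 hits in the control. The 3′ ETS was thus the only part of the 35S pre-rRNA without any read in the Rbp95-HTP pileup.

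The mature 3′ ends could be compared within the Rbp95-HTP pileup. At the 3′ end of the 5.8S rRNA, 244 hits on the last mature nucleotide were followed by 81 hits on the first nucleotide of ITS2, so up to 81 reads crossed it (33.2%), and 163 ended there. The 50 nucleotides of ITS2 beyond it had 48.8 hits on average. At the 3′ end of the 18S rRNA there were no hits on the last 50 mature nucleotides or the first 50 of ITS1, so nothing can be said of that border. At the mature 25S end the means were 314.7 hits over the last 50 mature nucleotides and 0 over the first 50 spacer nucleotides. In the control the last mature and the first spacer nucleotide had no hit at any of these 3 borders.

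**Figure D4:**
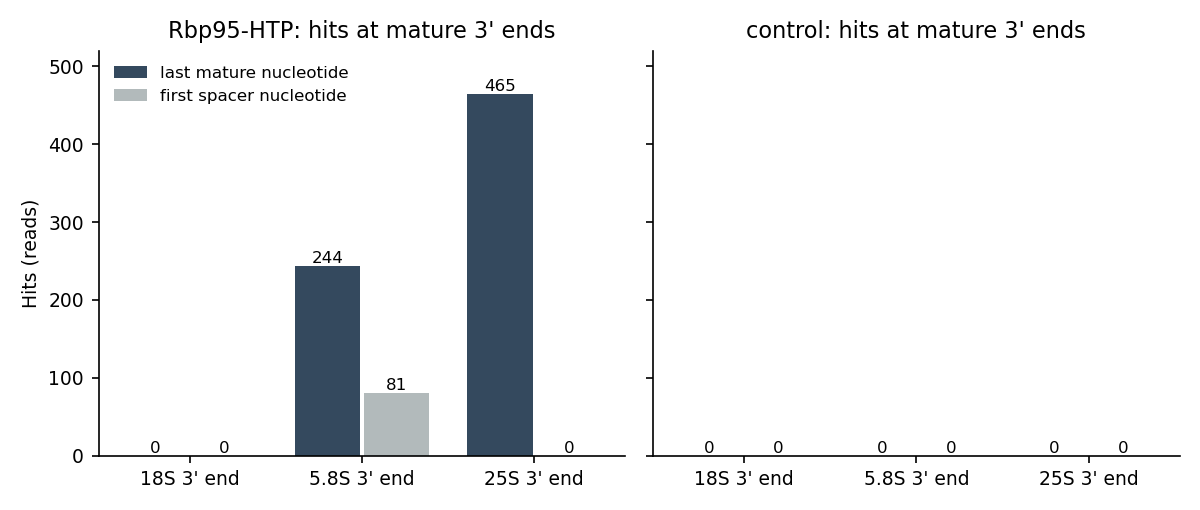
Hits (y axis, reads) on the last mature nucleotide (dark) and the first spacer nucleotide (light) at the 3′ ends of the 18S, 5.8S and 25S rRNAs (x axis), for Rbp95-HTP on the left and the control on the right. With Rbp95-HTP, 81 hits followed 244 at the 5.8S end and 0 followed 465 at the 25S end, and the control had none.

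In CRAC a nucleotide that stays attached to a remnant of the protein can be misread or skipped by the reverse transcriptase, so substitutions and deletions in the reads are read as marks of the crosslinked base. In the tail such changes were few. Of the 71210 hits with Rbp95-HTP, 280 had a substitution and none a deletion, so that 0.393% were altered. In the control 2 of 313 hits were altered. The share in the rest of the Rbp95-HTP pileup outside the helix H95 window was 0.578%, and in the window itself 1.12%. It was 0.450% in the 25S rRNA before the tail without the window and 0.414% in the 5.8S rRNA, both close to the tail. In the 5′ ETS, 18S rRNA, ITS1 and ITS2 it ranged from 0.755% to 1.31%. Without its most altered nucleotide, the whole 35S pre-rRNA outside the tail had an altered share of 0.4002%. That value includes the helix H95 window, which took 67.4% of all 35S hits, so it is mostly a comparison with the window. Deletions were seen elsewhere in that library, with 31 in the helix H95 window and 111 in the remaining 35S pre-rRNA, or 0.0126% of the hits there. Of these 111, the 5′ ETS had 35 and the 18S rRNA 59. The 25S rRNA before the tail without the window had 17 among 647729 hits, and ITS1, the 5.8S rRNA and ITS2 had 0. In the tail the count of 0 allows up to 3 deletions, or 0.00421% of the hits, so a lack of deletions was not particular to it. By base, the altered share in the tail was 0.523% at A, 0.472% at T, 0.406% at C and 0.208% at G, and G was also the lowest outside the tail and the window, with 0.329% compared with 0.648 to 0.692%.

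Among the 227 tail nucleotides with at least 100 hits, the median altered share was 0.166%, and 208 of them were altered in less than 1% of the hits. A share of at least 10% was reached by 1 of the 227 (0.441%), compared with 1.17% of the nucleotides with at least 100 hits anywhere in the 35S pre-rRNA. The 5 most altered nucleotides are shown with 12 nucleotides on either side and the altered one as a capital.
C3338: gggtattgtaagCagtagagtagcc
T3121: gctgaacgcctcTaagtcagaatcc
A3342: attgtaagcagtAgagtagccttgt
A3087: gcattgccgcgaAgctaccatccgc
C3099: agctaccatccgCtggattatggct
The most altered nucleotide, C3338, had 13 substitutions among 130 hits, or 10% (95% Wilson interval 5.94 to 16.4%), just at the limit. T3121 had 41 among 532 hits, or 7.71% (5.73 to 10.3%), and A3342 had 13 among 178 hits, or 7.30% (4.32 to 12.1%). A3087 had 8 among 150 hits, or 5.33% (2.73 to 10.2%), and C3099 had 18 among 437 hits, or 4.12% (2.62 to 6.42%). The next nucleotide, T3251, was altered in 1.89% of 106 hits.

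These 5 nucleotides held 93 of the 280 altered hits of the tail, or 33.2%, and without them 0.268% of the hits were altered. C3099 and T3121 lie within the nucleotides that kept 50% of the height around nucleotide 3106, and A3087 lies just in front of them. C3338 and A3342 lie close together within the lower peak at nucleotide 3322, which kept 50% of its height from nucleotide 3315 to 3344. Over the 22 nucleotides before the mature end, the largest share was 4 altered among 604 hits, at nucleotide 3389. The pileup does not give the base that replaced the reference. It also does not say which changes share a read. At T3121 the 41 altered hits equal in number both the 41 net starts at nucleotide 3101 and the 41 net ends at nucleotide 3122. At C3338 the 13 altered hits likewise equal the 13 net starts at nucleotide 3320 and the 13 net ends at nucleotide 3339. Whether these are the same reads was not tested. A3342 also had 13 altered hits, which equal the same 13 net starts at nucleotide 3320. No read end of that size lies downstream of A3342 within 30 nucleotides. A net 61 reads began on A3342 itself, where the hits rose from 117 to 178. No net start lay on any other of the 5 nucleotides. Whether the altered base of A3342 was the first of its reads was not tested. The 8 altered hits of A3087 and the 18 of C3099 equal no net start or end within 30 nucleotides. The control had at most 4 hits at any of the 5 nucleotides and none was altered, too few to give a background level.

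**Figure D5:**
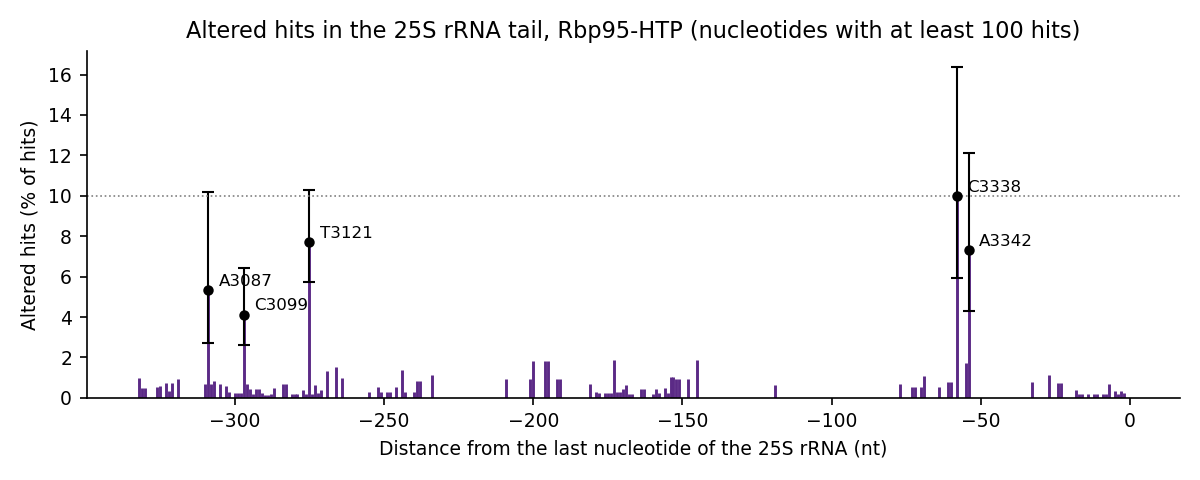
Altered hits, that is, substitutions and deletions (y axis, percent of hits), at the nucleotides of the 25S tail with at least 100 hits in the Rbp95-HTP library, against the distance from the last nucleotide of the 25S rRNA (x axis, nucleotides). The 5 most altered nucleotides are marked with their 95% Wilson intervals and the dotted line is at 10%, which C3338 alone reached.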

How the data were processed

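Libraries were made from RNA fragments of both purifications, amplified by PCR and sequenced on a MiSeq per the labels (HiSeq per the methods). Novoalign and the R64 genome are named in the submitters' processing notes, and per the methods the pileups were made with pyPileup. The authors deposited, for each nucleotide of the 35S pre-rRNA, raw counts of hits, substitutions and deletions, without normalization. Shares were therefore taken of all 35S hits, and starts and ends from the steps between neighboring nucleotides, where starts and ends on 1 nucleotide cancel. Borders of the rRNAs came from the RefSeq gene table. The background of the untagged strain is BY4741 in the labels and BY4742 in the methods, and the submitted design text names Nap1 in place of Rbp95; the sample labels were followed.

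Wilson intervals are at 95%. Calculations used Python 3.11.15, numpy 2.4.6, scipy 1.17.1 and matplotlib 3.10.9, and were tested on simulated data. The simulated blocks of reads did not overlap, so the cancelling of starts and ends was not tested. Named nucleotides were the 5 highest peaks of each library at least 50 nucleotides apart, covered stretches, the 3 largest starts, the border nucleotides and the 5 most altered nucleotides with at least 100 hits. Nucleotides 3056, 3101, 3122, 3144, 3320, 3339, 3389, 3392 and 3393, the ends at 3241 and 3124, and the starts ranked below the first 3 were chosen after their values were seen. The region and lists were chosen with earlier results of these data known. Tables of RNA classes and snoRNAs were not used here. The sequence of the second gap in the tail is not reported here.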

Additional observations from a re-analysis of the deposited data

How the results depend on the processing

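No paired analysis was possible because each condition had 1 library, and for the same reason no library could be left out. The share of 35S hits on the region with Rbp95-HTP was 2.44%. It was 7.48% when the 72 nucleotides before the region were left out of the total, 2.11% when the region began 40 nucleotides later and 2.60% when reads were counted in place of hits. The ratio of the 25S tail to the 3′ ETS, at least 71.1 by the mean, was at least 49.7 by the median. With Rbp95-HTP, 1 well-covered nucleotide reached an altered share of 10%, 0 did so by deletions alone and 4 reached 5%. Of the 120 nucleotides covered in the control, 0 remained at a minimum of 10 hits and 0 at 100 hits. A share or ratio was taken as changed outside the 95% counting interval of the value reported, and a count beyond 1.5 times, so that small moves of well-covered shares count as changes and larger ones of sparse counts do not. By these limits the other 17 values did not change, among them 227 covered nucleotides at a minimum of 100 hits with Rbp95-HTP, a share of 0.00616% in the control with the later beginning, and 0 reads across the mature 25S end with 5 nucleotides required on either side. The planned ratio to the 3′ ETS could be given only as a lower bound, since the spacer had no hits. With 6 net starts in the control tail, its heights there are set by few reads.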
